A study of Mus musculus with 24 samples.

Results

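Hemin was added together with succinylacetone (SA) while mouse embryonic stem cells (mESCs) left the naive state, and the libraries made with hemin were compared with those made with SA alone. The members were chosen by label. They were the 4 libraries with SA and hemin during the transition (EpiLC+SA+H) and the 4 with SA alone (EpiLC+SA), 8 of the 24 libraries of the series, with all 23762 gene symbols of the count table. Both groups were ES-E14TG2a cells, an established mESC line, kept for 48 h on 15 μg/ml fibronectin with 12 ng/ml bFGF and 20 ng/ml activin A, which moves naive cells toward epiblast-like cells (EpiLC). Both received 0.5 mM SA, and EpiLC+SA+H also received 10 μM hemin. Set beside them were EpiLC (the same 48 h with neither compound), 2iL+SA+H and 2iL+SA (naive cells held in LIF, 3 μM CHIR99021 and 1 μM PD0325901, with the same 0.5 mM SA and 10 μM hemin for 48 h) and 2iL, with 4 libraries each. Hemin was given only together with SA in the labelled groups, so an effect of hemin on cells without SA was not measured. Nothing says that the replicates were separate cultures, and the p-values therefore measure the spread between these libraries, which may be technical.

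SA inhibits ALAD, an early enzyme of heme synthesis, and hemin is an oxidised form of heme that cells can take up from the medium. Heme is the cofactor of cytochromes and catalase, and it is also read as a signal: it takes the repressor BACH1 off its target genes, restrains HRI, the kinase that starts the integrated stress response, and releases iron when heme oxygenase opens its ring. Naive mESCs stand for the epiblast before implantation, and cells that leave this state with bFGF and activin turn on formative and primed genes such as Fgf5, Otx2 and Pou3f1.

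Libraries of EpiLC+SA+H held between 2131987 and 8465889 counts, and those of EpiLC+SA between 5125140 and 6324442. EpiLC+SA+H replicate 1 was the shallowest of the 8 and one of 3 libraries of the series that stood below the rest in depth. Of the defining pluripotency genes, Sox2, Sall4 and Lin28a were present in every library (Sox2 at 646 to 924 CPM in EpiLC+SA+H and 245 to 537 CPM in EpiLC+SA). Pou5f1 was at 5.55 to 87.7 CPM in EpiLC+SA+H and 7.28 to 10.8 CPM in EpiLC+SA, and was not called (log2 fold change 1.68, edgeR adjusted p = 0.0932). Reads shared with its pseudogenes would have been discarded as mapping to several loci, and the part of this in its level was not tested. CPM are counts scaled to library size with TMM factors. Values per library are given in the order of replicates 1 to 4, a log2 fold change is EpiLC+SA+H over EpiLC+SA, and calls were made where edgeR's quasi-likelihood test gave an adjusted p below 0.05 over all 16067 genes that passed a filter on low counts.

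Iron-responsive elements are shown first, since both Tfrc and Slc40a1 carry them, in different UTRs. The part of these elements in the mRNA levels given below was not tested. An iron-responsive element is a hairpin that iron regulatory proteins grip when iron is short. In a 5' UTR this blocks translation of ferritin and ferroportin mRNAs, and in the 3' UTR of the transferrin receptor mRNA it protects the message from decay. In 44 GENCODE transcript models of tested heme and iron genes (1 per gene, GRCm38), 7 hairpins in 4 genes had the loop CAGTGN closed by 5 base pairs over a bulged C, with at least 4 of 6 pairs below the bulge. Any hits on 1 chromosome are not reported here. Each hairpin is printed 5' to 3' as the DNA of the transcribed strand, with the loop in capitals.
Tfrc element 1: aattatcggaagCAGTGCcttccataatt
Tfrc element 2: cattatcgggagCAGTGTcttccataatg
Tfrc element 3: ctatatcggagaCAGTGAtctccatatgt
Tfrc element 4: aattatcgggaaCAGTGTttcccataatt
Slc40a1 element 1: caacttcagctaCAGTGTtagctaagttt
Fth1 element 1: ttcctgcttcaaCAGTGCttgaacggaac
Ftl1 element 1: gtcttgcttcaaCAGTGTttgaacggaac
The 4 Tfrc elements lie on the plus strand in the 3' UTR, at chr16:32631219-32631247, chr16:32631598-32631626, chr16:32631663-32631691 and chr16:32631710-32631738. The others lie in 5' UTRs, that of Slc40a1 at chr1:45925465-45925493 (minus strand), that of Fth1 at chr19:9982732-9982760 (plus strand) and that of Ftl1 at chr7:45459779-45459807 (minus strand).

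Tfrc, the gene of the transferrin receptor through which cells import iron, was 4 to 5 times lower with hemin. It had 83.3, 97.7, 71.8 and 109 CPM in EpiLC+SA+H, against 372, 402, 415 and 420.0 CPM in EpiLC+SA, with no overlap and little spread within either group. This was a log2 fold change of -2.15 (SE 0.33, edgeR adjusted p = 6.11e-05), and the mean in untreated EpiLC was 88.4 CPM. Slc40a1, which encodes ferroportin, the exporter of iron, moved the other way, with 16, 26.1, 4.34 and 4.63 CPM in EpiLC+SA+H, against 1.13, 4.25, 2.74 and 1.03 CPM in EpiLC+SA. Replicates 1 and 2 with hemin stood well above replicates 3 and 4, and the lowest of them lay just above the highest library without hemin. The difference was a log2 fold change of 2.48 (SE 0.59, edgeR adjusted p = 0.00414), against a mean of 11.7 CPM in EpiLC. These bulk libraries cannot tell fewer cells of a kind from less RNA per cell.

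No other tested gene of iron handling was called, which left 1 higher and 1 lower of 18 (5.56% each) against 10.5% higher and 5.95% lower over all genes tested, with a median log2 fold change of -0.16. The ferritin genes, which carry the 5' elements shown above, spread widely: Fth1 had 559, 783, 517 and 746 CPM in EpiLC+SA+H, against 794, 1093, 518 and 953 CPM in EpiLC+SA (log2 fold change -0.37, SE 0.33, edgeR adjusted p = 0.498). Ftl1 was far lower, at 5.81 to 25.4 CPM in EpiLC+SA+H and 12.7 to 25.5 CPM in EpiLC+SA, with a log2 fold change of -0.38 (SE 0.45, edgeR adjusted p = 0.623). Reads that map to several loci were discarded, and the part of this in the level of Ftl1 was not tested. Slc39a14, a transporter of iron not bound to transferrin, was at 11.1 to 23.5 CPM in EpiLC+SA+H, against 31.2 to 44.7 CPM in EpiLC+SA, without overlap but with an edgeR adjusted p of 0.0886. Heph, a ferroxidase that works with ferroportin, was near the detection limit at 0 to 0.489 CPM in EpiLC+SA+H, against 0.861 to 2.59 CPM in EpiLC+SA (edgeR adjusted p = 0.0633). Both were called by DESeq2, and Slc39a14 also in the fit to the compared groups alone and once each library's trend on transcript length was removed. The mRNAs of the iron regulatory proteins themselves, Aco1 and Ireb2, had log2 fold changes of -0.55 (SE 0.31, edgeR adjusted p = 0.245) and 0.0 (SE 0.16, edgeR adjusted p = 0.993).

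**Figure D1:**
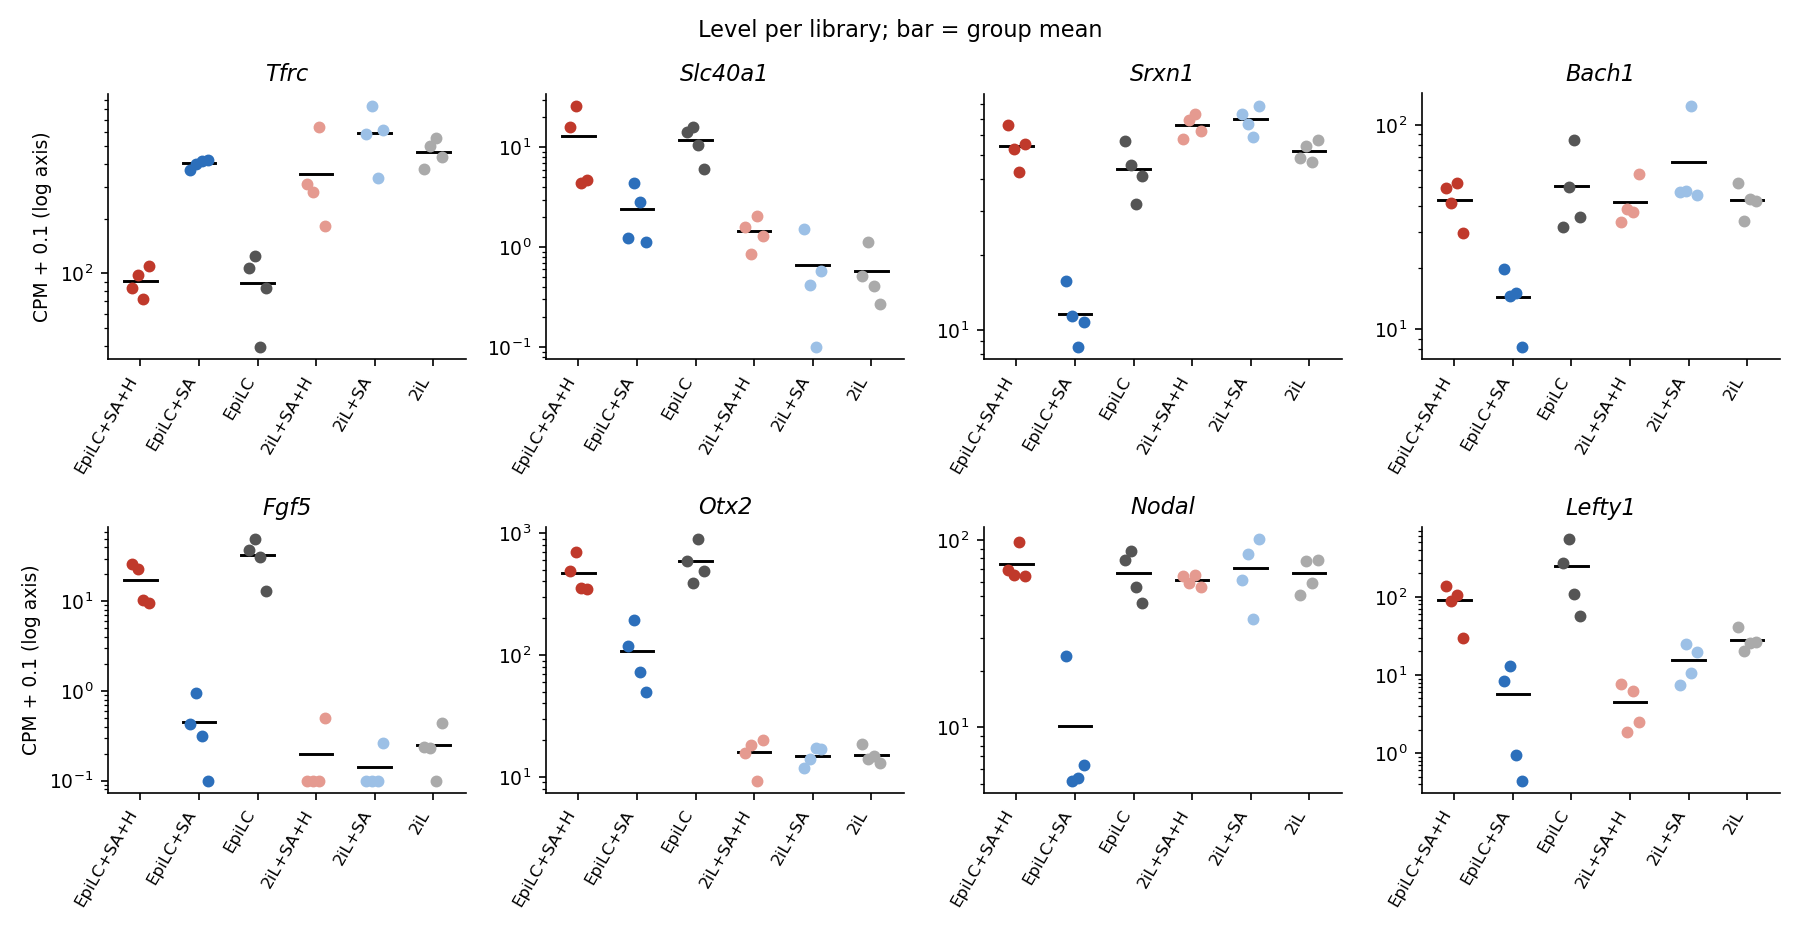
Level per library of Tfrc, Slc40a1, Srxn1, Bach1, Fgf5, Otx2, Nodal and Lefty1 in the 6 groups (vertical log axis, CPM + 0.1; points are libraries, n = 4 a group, and the bar is the group mean). EpiLC+SA+H and EpiLC+SA libraries do not overlap in any of the 8 genes, and Tfrc is the one that is lower with hemin.

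Over the transcriptome hemin changed more genes upward than downward. Of the 16067 genes tested, 2645 were called (16.5%), 1689 of them higher in EpiLC+SA+H (10.5%) and 956 lower (5.95%), with a median log2 fold change of 0.01 over all genes. Changes of more than 2-fold were seen in 1182 of the higher and 474 of the lower genes. The count of lower genes leaned on single libraries: it was 551 without EpiLC+SA replicate 3, 550 without EpiLC+SA replicate 4 and 1561 without the 3 shallow libraries of the series. Without EpiLC+SA+H replicate 1 alone it was 776, with 1700 higher.

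**Figure D2:**
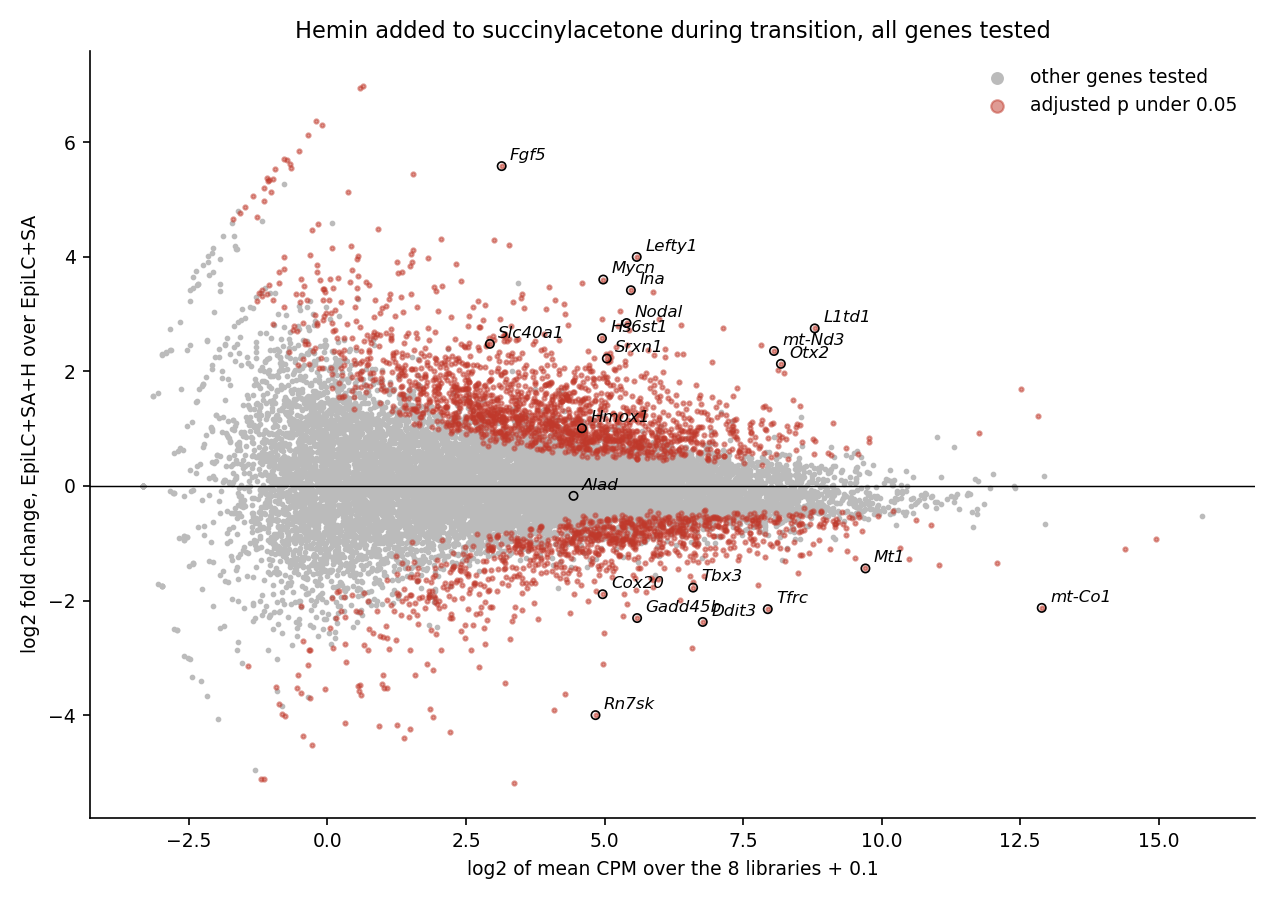
Log2 fold change of EpiLC+SA+H over EpiLC+SA (vertical axis) against the log2 mean CPM + 0.1 of the 8 libraries (horizontal axis) for 16067 genes, with the 2645 called genes in red. Fgf5 and Lefty1 lie high among the called genes, Tfrc and mt-Co1 are abundant genes that lie low, and Alad and Hmox1 are not called.

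The lists of the following paragraphs (35, with 763 symbols of which 678 were tested) are read against those shares. Some genes stand in more than 1 list (807 entries in all), so the counts of different lists are not separate. The enzymes of heme synthesis did not pass the test in either direction (0 of 8 tested, median log2 fold change -0.14). Alad, whose enzyme SA blocks, had 26.1, 24, 16.4 and 15.4 CPM in EpiLC+SA+H, against 23.6, 23.2, 20.1 and 24.1 CPM in EpiLC+SA, and the groups overlapped (log2 fold change -0.17, SE 0.22, edgeR adjusted p = 0.648). Alas1, which encodes the first and rate-limiting enzyme in non-erythroid cells, was at 9.68 to 27.6 CPM in EpiLC+SA+H, against 27.2 to 44.3 CPM in EpiLC+SA (log2 fold change -0.83, SE 0.33, edgeR adjusted p = 0.0859), and it was called lower once each library's trend on transcript length was removed (-0.92, edgeR adjusted p = 0.0379). Cpox had a log2 fold change of -0.67 (SE 0.37, edgeR adjusted p = 0.231) and Fech, which inserts the iron, 0.26 (SE 0.18, edgeR adjusted p = 0.35). Urod had a log2 fold change of -0.04. Uros and Ppox were at most 3.05 and 3.24 CPM in any of the 8 libraries, and without EpiLC+SA replicate 4 Uros was called higher (log2 fold change 2.34, edgeR adjusted p = 0.0306, against 0.287 with all libraries).

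Of 18 genes of heme transport and breakdown, 0 were higher and 1 was lower, at a median of -0.10. The 1 was Tmem14c, which carries a heme precursor across the inner mitochondrial membrane, with 128, 83.5, 109 and 88.1 CPM in EpiLC+SA+H, against 176, 157, 159.8 and 178 CPM in EpiLC+SA (log2 fold change -0.72, SE 0.25, edgeR adjusted p = 0.0492). Its p passed by little and was lost without EpiLC+SA+H replicate 2, 3 or 4 or EpiLC+SA replicate 1, 2, 3 or 4 (0.0772 to 0.133). It was also lost with the length trend removed (0.118) and with no filter on low counts (0.0579). Brackets after a lost or gained call give the adjusted p without that library or in that fit, as a range where several libraries each ended the call. Losses of a call in fits other than those without 1 library are given for some genes only. Hmox1, the inducible heme oxygenase and a textbook response to hemin, had 94.4, 11.6, 13.2 and 11.8 CPM in EpiLC+SA+H, against 18.4, 14.7, 13.1 and 15 CPM in EpiLC+SA. A single library, EpiLC+SA+H replicate 1, stood far above the other 3, which lay inside or under the range without hemin, and the gene was not called (log2 fold change 1.01, SE 0.53, edgeR adjusted p = 0.205). Slc48a1, a lysosomal heme carrier, showed the same library apart, with 101, 39.3, 47.5 and 36.9 CPM in EpiLC+SA+H, against 53.7, 62.1, 66.3 and 56.1 CPM in EpiLC+SA (log2 fold change -0.11, SE 0.26, edgeR adjusted p = 0.822). Abcg2, a heme and porphyrin exporter, had a log2 fold change of -0.58 (SE 0.21, edgeR adjusted p = 0.0521) and was called without EpiLC+SA replicate 4 (0.0258), by DESeq2 (0.0466) and with the length trend removed (0.0198). Slc25a38, the glycine carrier that feeds heme synthesis, had a log2 fold change of -0.91 (SE 0.33, edgeR adjusted p = 0.0623) and was called without EpiLC+SA+H replicate 2 (0.0233), without the 3 shallow libraries (0.0402) and by DESeq2 (0.025).

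BACH1 and NRF2 compete for the same antioxidant response elements, and heme removes BACH1 from them. Of 38 listed regulators and targets, 9 were higher (23.7%) and 1 lower, yet the median was -0.04: a few members moved far and most were not called. Srxn1, a sulfiredoxin that repairs oxidised peroxiredoxins, had 65.8, 53, 42.7 and 55.1 CPM in EpiLC+SA+H, against 15.5, 11.3, 8.44 and 10.7 CPM in EpiLC+SA, a gap of more than 2-fold between the groups (log2 fold change 2.22, SE 0.20, edgeR adjusted p = 6.06e-08; EpiLC 43.8 CPM). Cbr3, a carbonyl reductase, had 49.4, 100.1, 64.7 and 48.6 CPM in EpiLC+SA+H, against 15.7, 25.9, 15 and 16.2 CPM in EpiLC+SA (log2 fold change 1.86, SE 0.33, edgeR adjusted p = 2.93e-04). Abcc4, an exporter of conjugates and cyclic nucleotides, had a log2 fold change of 1.32 (SE 0.23, edgeR adjusted p = 2.40e-04) and Txnrd1, a thioredoxin reductase, 1.09 (SE 0.27, edgeR adjusted p = 0.00542). Gclm, the modifier subunit of glutathione synthesis, had a log2 fold change of 0.85 (SE 0.25, edgeR adjusted p = 0.0186), a call lost without EpiLC+SA+H replicate 1 or EpiLC+SA replicate 4 (0.0557 to 0.0928). Me1, which makes NADPH, was the member that fell, by 0.81 on the log2 scale, and it lost its call without EpiLC+SA+H replicate 1 or 3 or EpiLC+SA replicate 2 or 4 (0.0635 to 0.0817).

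The regulators themselves also differed. Keap1, which holds NRF2 down, had 63.9, 45.3, 64.1 and 51.7 CPM in EpiLC+SA+H, against 18.6, 9.99, 8.23 and 12.2 CPM in EpiLC+SA, a log2 fold change of 2.18 (SE 0.20, edgeR adjusted p = 4.87e-08), and untreated EpiLC averaged 37.7 CPM. Bach1 had 48.9, 41.6, 52 and 29.7 CPM in EpiLC+SA+H, against 19.6, 14.5, 15 and 8.09 CPM in EpiLC+SA (log2 fold change 1.58, SE 0.34, edgeR adjusted p = 0.00195). Bach2, its lymphoid relative, had 7.26, 9.13, 7.29 and 6.42 CPM in EpiLC+SA+H, against 0.809, 0.213, 1.27 and 0.344 CPM in EpiLC+SA, where it was near the detection limit (log2 fold change 3.48, SE 0.65, edgeR adjusted p = 5.27e-04). The mRNAs of both repressors and of 6 of the 31 tested targets were higher in the same libraries.

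The antioxidant response element was looked for as TGANTCAGC on both strands of RefSeq promoters (GRCm38.p6, 250 bases before to 50 after the start), because its core is what BACH1 and NRF2 bind. It stood in 103 of 10621 promoters of tested genes (0.97%), in 3 of 31 of the list (9.68%), in 12 of 1257 of all genes that were higher (0.955%) and in 8 of 648 of those that were lower (1.23%). The 3 list members that hold it are printed with 10 bases on each side and the motif in capitals.
Srxn1: aaattcacccTGAGTCAGCggccgggcgc
Prdx1: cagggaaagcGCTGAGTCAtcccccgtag
Me1: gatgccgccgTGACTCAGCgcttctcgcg
They lie at chr2:152105469-152105497 (plus strand), chr4:116685456-116685484 (plus strand, motif on the minus strand) and chr9:86695902-86695930 (minus strand). Of their genes Srxn1 rose, Me1 fell and Prdx1 had a log2 fold change of -0.47 (SE 0.38, edgeR adjusted p = 0.432). A match is a description of the letters, and its absence from the other members' windows says nothing of the factor.

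Of 12 tested regulators that bind heme, 2 were higher, Bach1 and Bach2, and 3 were lower (median -0.12). Per1, a clock repressor, had 11.1, 14.4, 13.2 and 11.7 CPM in EpiLC+SA+H, against 24.6, 73.4, 43.5 and 38.7 CPM in EpiLC+SA, a log2 fold change of -1.83 (SE 0.35, edgeR adjusted p = 7.15e-04). Dgcr8, the heme-binding partner of Drosha in microRNA processing, had 61.5, 32.9, 44.4 and 33.5 CPM in EpiLC+SA+H, against 102, 96.5, 104 and 76.3 CPM in EpiLC+SA (log2 fold change -1.15, SE 0.27, edgeR adjusted p = 0.0035). Nr1d1, the heme receptor REV-ERBα, had 1.26 to 6.52 CPM in EpiLC+SA+H, against 7.77 to 19.6 CPM in EpiLC+SA (log2 fold change -1.62, SE 0.46, edgeR adjusted p = 0.016) and lost its call without EpiLC+SA+H replicate 4 or EpiLC+SA replicate 2 (0.0706 to 0.0978). Eif2ak1, which encodes HRI, was at 35.6 to 41.2 CPM in EpiLC+SA+H, against 28.3 to 35 CPM in EpiLC+SA, without overlap but with an edgeR adjusted p of 0.238. None of the 5 tested globin and erythroid genes was called (median -0.47), and their summed level was 3.10 to 11.1 CPM in EpiLC+SA+H and 3.27 to 7.28 CPM in EpiLC+SA.

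The integrated stress response reads heme through HRI and acts through ATF4. Of 48 kinases, factors and targets, 5 were higher and 3 lower, a share of 16.7% beside the 16.5% of all genes, with a median of -0.01. Its members did not move one way. Sesn2, a brake on mTORC1, had 66.3, 63, 88.6 and 49.9 CPM in EpiLC+SA+H, against 33.3, 21.1, 21.7 and 14.3 CPM in EpiLC+SA (log2 fold change 1.56, SE 0.24, edgeR adjusted p = 6.41e-05), and the amino acid carriers Slc1a4 and Slc38a2 had log2 fold changes of 1.82 (SE 0.35, edgeR adjusted p = 6.86e-04) and 1.39 (SE 0.27, edgeR adjusted p = 8.61e-04). Chac1, which degrades glutathione, had 9.68, 6.85, 15.8 and 11.7 CPM in EpiLC+SA+H, against 3.56, 1.06, 0.844 and 2.76 CPM in EpiLC+SA (log2 fold change 2.37, SE 0.59, edgeR adjusted p = 0.00692). Its mean in untreated EpiLC was 58.4 CPM, and the difference of EpiLC+SA+H from EpiLC was not called (log2 fold change -2.39, edgeR adjusted p = 0.07). Stc2, a secreted glycoprotein of this response, had a log2 fold change of 1.86 (SE 0.54, edgeR adjusted p = 0.0184), lost without EpiLC+SA+H replicate 2 or EpiLC+SA replicate 2 or 3 (0.057 to 0.0755).
Ddit3, which encodes the factor CHOP, was lower with hemin, with 17.9, 56.1, 48.1 and 17.8 CPM in EpiLC+SA+H, against 172, 218, 101 and 242 CPM in EpiLC+SA, a log2 fold change of -2.37 (SE 0.69, edgeR adjusted p = 0.0199). The groups did not overlap, but the call was lost without EpiLC+SA+H replicate 1 or 4 or EpiLC+SA replicate 4 (0.0569 to 0.0745). With no filter on low counts it was also lost (0.0528). Untreated EpiLC held 149 ± 121 CPM of Ddit3 (SD, n = 4), near the level with SA alone. The difference of EpiLC+SA+H from EpiLC was not called (log2 fold change -2.07, edgeR adjusted p = 0.283). Slc3a2, the heavy chain of several amino acid exchangers, had a log2 fold change of -1.32 (SE 0.38, edgeR adjusted p = 0.018) and lost its call without EpiLC+SA+H replicate 1 or EpiLC+SA replicate 4 (0.0525 to 0.0608). Cth, the last enzyme of transsulfuration, had a log2 fold change of -0.96 (SE 0.33, edgeR adjusted p = 0.0485) and lost it without EpiLC+SA+H replicate 1, 2, 3 or 4 or EpiLC+SA replicate 1, 2, 3 or 4 (0.0574 to 0.129).

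Heat shock and metallothionein genes moved in both directions, with 4 of 17 higher and 4 lower (median 0.07). The HSP40 co-chaperones Dnajb1 and Dnaja1 rose: Dnajb1 had 104, 38, 50.4 and 47.8 CPM in EpiLC+SA+H, against 19.1, 18.9, 15 and 20.3 CPM in EpiLC+SA (log2 fold change 1.69, SE 0.29, edgeR adjusted p = 1.87e-04) and Dnaja1 a log2 fold change of 0.96 (SE 0.18, edgeR adjusted p = 5.76e-04). Hsph1, a nucleotide exchange factor of HSP70, had a log2 fold change of 0.95 (SE 0.23, edgeR adjusted p = 0.00565), and Bag3, a co-chaperone of aggregate clearance, 0.57 (SE 0.19, edgeR adjusted p = 0.0433), lost without EpiLC+SA+H replicate 1, 3 or 4 or EpiLC+SA replicate 3 or 4 (0.0619 to 0.133). The inducible HSP70 genes were low throughout and fell. Hspa1a had 0.968, 1.63, 1.55 and 2.63 CPM in EpiLC+SA+H, against 2.1, 9.36, 21.7 and 16.7 CPM in EpiLC+SA (log2 fold change -2.76, SE 0.63, edgeR adjusted p = 0.00331), and Hspa1b a log2 fold change of -1.64 (SE 0.52, edgeR adjusted p = 0.0308), lost without EpiLC+SA+H replicate 1, 2 or 3 or EpiLC+SA replicate 3 or 4 (0.0593 to 0.139). These are near-identical copies whose shared reads were discarded, so their split is uncertain. The metallothioneins, which bind zinc and copper, were abundant and fell. Mt1 had 659.9, 501, 274 and 369 CPM in EpiLC+SA+H, against 862, 1401, 1070.1 and 1550.4 CPM in EpiLC+SA (log2 fold change -1.44, SE 0.25, edgeR adjusted p = 2.28e-04), and Mt2 a log2 fold change of -1.27 (SE 0.34, edgeR adjusted p = 0.0117), lost without EpiLC+SA replicate 4 (0.0727).

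Genes of the primed and formative epiblast made up the list with the highest share of genes that rose. Of 24 tested, 14 were higher with hemin (58.3%) and 0 lower, with a median log2 fold change of 1.22. Among the 14 transcription factors 11 were higher. The list was chosen with earlier results of these libraries known, so its direction is no independent evidence. Fgf5, a growth factor of the epiblast after implantation, had 26.1, 22.7, 10.2 and 9.47 CPM in EpiLC+SA+H, against 0.324, 0.851, 0.211 and 0 CPM in EpiLC+SA, a log2 fold change of 5.58 (SE 0.64, edgeR adjusted p = 1.51e-06). Every hemin library was more than 10 times above every library with SA alone, and the mean of untreated EpiLC was 32.7 CPM. Otx2, a factor that drives the exit from the naive state, had 492, 695, 356 and 348 CPM in EpiLC+SA+H, against 118, 192, 72.2 and 49.4 CPM in EpiLC+SA (log2 fold change 2.13, SE 0.33, edgeR adjusted p = 7.27e-05). Pou3f1, which encodes OCT6, had 520.5, 215, 82.5 and 167 CPM in EpiLC+SA+H, against 24.4, 53.4, 45.6 and 22.4 CPM in EpiLC+SA, a wide range with hemin that stayed above all libraries without it (log2 fold change 2.75, SE 0.46, edgeR adjusted p = 1.91e-04). Zic2 had a log2 fold change of 1.81 (SE 0.29, edgeR adjusted p = 9.84e-05), Lef1 2.79 (SE 0.51, edgeR adjusted p = 4.94e-04) and Fgf15 3.58 (SE 0.78, edgeR adjusted p = 0.00243).

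Nodal signaling maintains the primed epiblast through SMAD2 and SMAD3, and its targets include its own ligand and the inhibitors that limit it. Of 33 tested genes of the pathway, 12 were higher and 0 lower (median 0.48), and 6 of the 12 tested inhibitors were among them. Nodal had 69.2, 65.2, 96.8 and 64.4 CPM in EpiLC+SA+H, against 23.9, 5.1, 5.28 and 6.2 CPM in EpiLC+SA, a log2 fold change of 2.84 (SE 0.38, edgeR adjusted p = 1.44e-05). The groups did not overlap, although EpiLC+SA replicate 1 held about 4 times the level of the other 3. Its coreceptor gene Tdgf1 had 159, 199, 222 and 215 CPM in EpiLC+SA+H, against 101, 113, 93.7 and 66.1 CPM in EpiLC+SA (log2 fold change 1.09, SE 0.27, edgeR adjusted p = 0.00542). Among the inhibitors, Lefty1, a secreted antagonist of Nodal on chromosome 1 (180935022 to 180938400), had 138, 87.3, 105 and 29.6 CPM in EpiLC+SA+H, against 8.25, 13, 0.844 and 0.344 CPM in EpiLC+SA. This was a log2 fold change of 4.0 (SE 0.79, edgeR adjusted p = 0.00126), with both the hemin libraries and those without spread over more than 4-fold. Skil, which represses SMAD targets, had a log2 fold change of 1.43 (SE 0.22, edgeR adjusted p = 7.25e-05), Dact2, which sends Nodal receptors to lysosomes, 2.12 (SE 0.37, edgeR adjusted p = 2.40e-04), and Smad7, an inhibitory SMAD, 1.76 (SE 0.42, edgeR adjusted p = 0.00516). Eomes, a Nodal target of mesendoderm, had a log2 fold change of 0.95 (SE 0.31, edgeR adjusted p = 0.0385), a call lost without EpiLC+SA+H replicate 3 or 4 or EpiLC+SA replicate 2 or 4 (0.0692 to 0.109).

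FGF signals through ERK push cells out of the naive state. Of 30 tested genes of this pathway, 13 were higher and 0 lower (median 0.83), with 3 of 4 ligands, 5 of 11 feedback inhibitors and 4 of 10 targets. Fgf4, the ligand that mESCs make themselves, had 254, 252, 187 and 124 CPM in EpiLC+SA+H, against 103, 83.8, 89.3 and 70.6 CPM in EpiLC+SA (log2 fold change 1.23, SE 0.24, edgeR adjusted p = 8.12e-04). Of the feedback genes, Spry2 had 55.7, 33.3, 47.3 and 47.3 CPM in EpiLC+SA+H, against 21.5, 15.3, 12.7 and 9.82 CPM in EpiLC+SA (log2 fold change 1.62, SE 0.28, edgeR adjusted p = 1.98e-04) and Spred3 a log2 fold change of 2.54 (SE 0.49, edgeR adjusted p = 6.43e-04). The immediate early gene Ier3 had a log2 fold change of 2.28 (SE 0.42, edgeR adjusted p = 4.58e-04). Myc had 5.81, 1.47, 0.931 and 9.26 CPM in EpiLC+SA+H, against 0.647, 0.425, 0.633 and 0 CPM in EpiLC+SA (log2 fold change 3.30, SE 0.82, edgeR adjusted p = 0.00591), and its call was lost without EpiLC+SA+H replicate 4 (0.0592).

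In the Wnt pathway 9 of 30 tested genes were higher and 1 lower (median 0.42). The Frizzled receptor gene Fzd7 had 57.6, 72.6, 52.8 and 79.8 CPM in EpiLC+SA+H, against 23.6, 28.7, 24.9 and 24.6 CPM in EpiLC+SA, tight within each group (log2 fold change 1.37, SE 0.19, edgeR adjusted p = 1.32e-05), and Fzd8 had a log2 fold change of 2.29 (SE 0.48, edgeR adjusted p = 0.0017). Nkd2, an inhibitor that binds Dishevelled, had a log2 fold change of 1.85 (SE 0.41, edgeR adjusted p = 0.00263). The member that fell was the coreceptor gene Lrp5, with a log2 fold change of -0.75 (SE 0.22, edgeR adjusted p = 0.0209), lost without EpiLC+SA+H replicate 1 or 3 or EpiLC+SA replicate 2 or 3 (0.0579 to 0.103).
In the Notch pathway 4 of 21 were higher and 1 lower (median 0.15). The receptor gene Notch1 had 18.9, 27.6, 21.4 and 32 CPM in EpiLC+SA+H, against 7.61, 2.55, 5.91 and 2.93 CPM in EpiLC+SA, a log2 fold change of 2.39 (SE 0.29, edgeR adjusted p = 2.66e-06). Maml1 and Maml2, coactivators of the cleaved receptor, had log2 fold changes of 3.88 (SE 0.68, edgeR adjusted p = 2.99e-04) and 1.73 (SE 0.36, edgeR adjusted p = 0.00136), and Maml1 had no count in 2 of the EpiLC+SA libraries. Notch2 had a log2 fold change of 1.08 (SE 0.35, edgeR adjusted p = 0.0321), lost without EpiLC+SA+H replicate 2 or 4 or EpiLC+SA replicate 3 or 4 (0.0948 to 0.114). The ligand gene Dll1 had a log2 fold change of -1.34 (SE 0.46, edgeR adjusted p = 0.0462), lost without EpiLC+SA+H replicate 1, 2 or 3 or EpiLC+SA replicate 2, 3 or 4 (0.0793 to 0.174).

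In the Hedgehog pathway 4 of 14 were higher and 0 lower (median 0.87). Sufu, which restrains the GLI factors, had 13.1, 9.95, 10.4 and 14.2 CPM in EpiLC+SA+H, against 5.99, 4.25, 3.8 and 3.96 CPM in EpiLC+SA (log2 fold change 1.39, SE 0.26, edgeR adjusted p = 5.39e-04). Gli3 had a log2 fold change of 0.93 (SE 0.26, edgeR adjusted p = 0.0153), lost without EpiLC+SA+H replicate 4 (0.0585), Gli2 1.62 (SE 0.49, edgeR adjusted p = 0.0226), lost without EpiLC+SA+H replicate 3 or EpiLC+SA replicate 2 (0.0619 to 0.105), and the coreceptor gene Boc 1.67 (SE 0.50, edgeR adjusted p = 0.0226), lost without EpiLC+SA+H replicate 4 or EpiLC+SA replicate 2 or 3 (0.0687 to 0.168). Of 17 BMP and ID genes, 2 were higher (11.8%, near the 10.5% of all genes tested) and 0 lower (median 0.02). Smad1 had a log2 fold change of 0.80 (SE 0.26, edgeR adjusted p = 0.0338), lost without EpiLC+SA+H replicate 2 or 3 or EpiLC+SA replicate 3 or 4 (0.0509 to 0.174), and Msx1 2.47 (SE 0.82, edgeR adjusted p = 0.0395) at no more than 1.45 CPM, lost without EpiLC+SA+H replicate 1, 2 or 3 or EpiLC+SA replicate 1 or 3 (0.0548 to 0.0982).

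**Figure D3:**
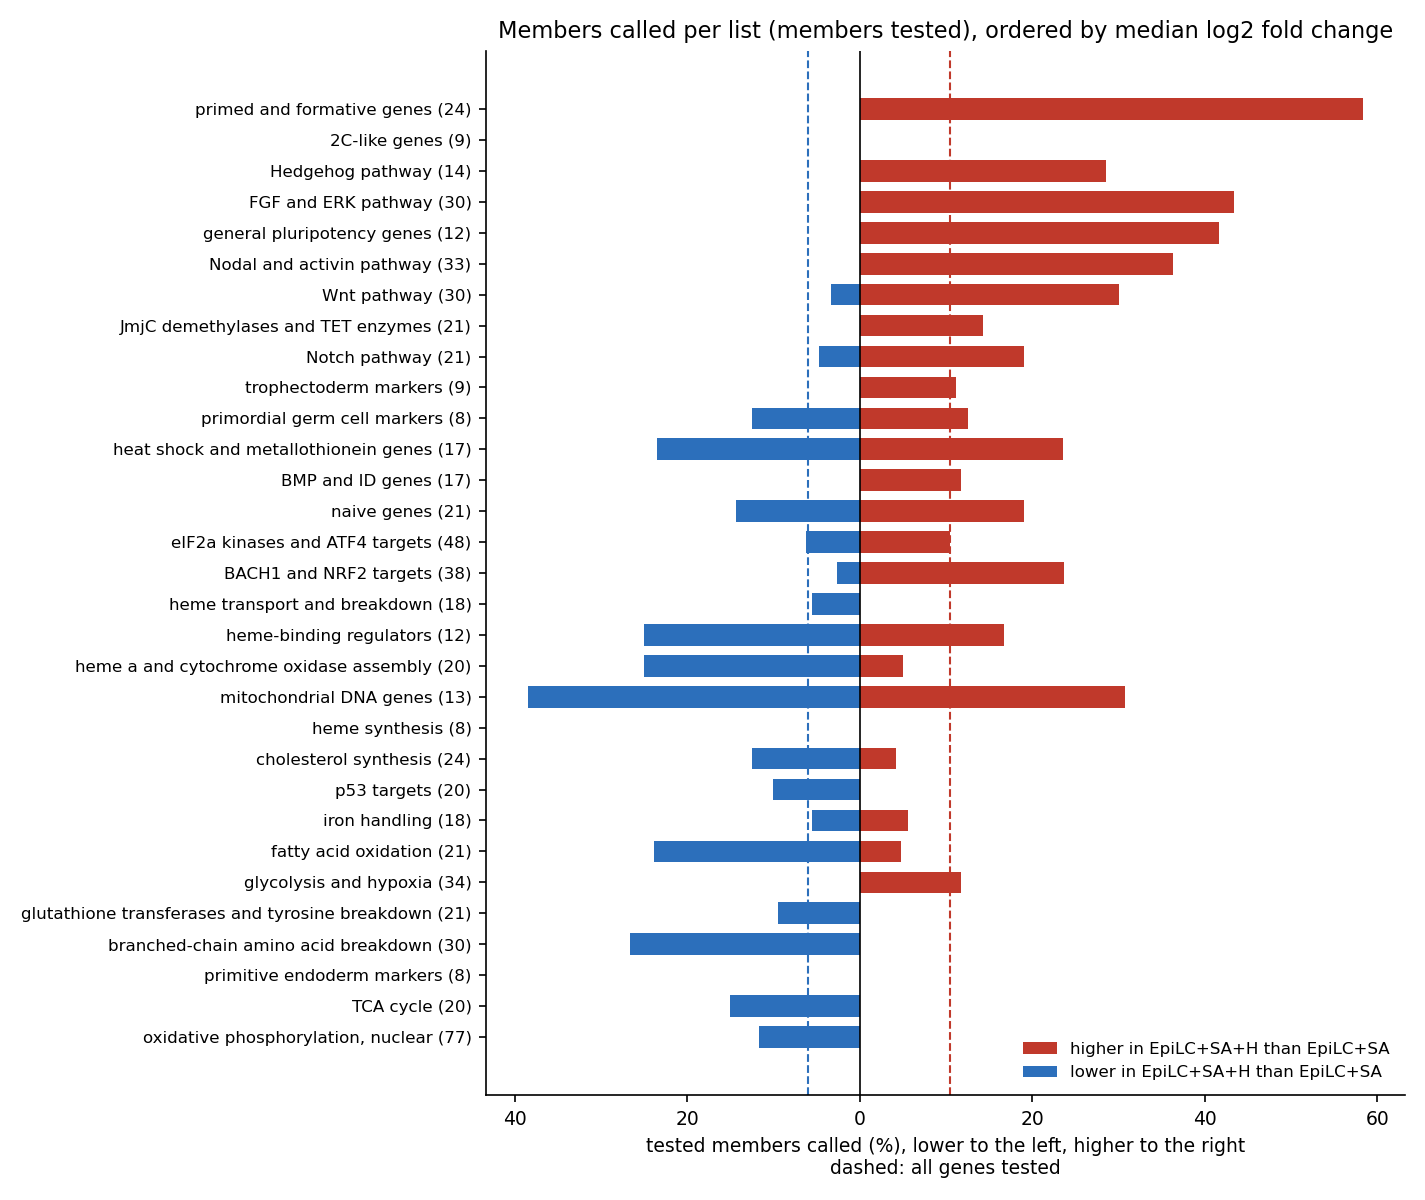
Share of the tested members of each list that were called (horizontal axis, percent), lower in EpiLC+SA+H to the left in blue and higher to the right in red, with the number tested in brackets and the lists ordered by median log2 fold change. Dashed lines mark all genes tested (10.5% higher and 5.95% lower), and the primed, FGF, general pluripotency and Nodal lists pass the right line by the most while mitochondrial DNA genes and branched-chain amino acid breakdown lead several lists that pass the left one.

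Naive genes did not move together: 4 of 21 were higher and 3 lower (median 0.01). The factors Tbx3, Tfcp2l1 and Stat3 fell. Tbx3 had 27.6, 29.8, 78.4 and 38.1 CPM in EpiLC+SA+H, against 192, 105, 186 and 117 CPM in EpiLC+SA (log2 fold change -1.77, SE 0.35, edgeR adjusted p = 8.61e-04), Tfcp2l1 61, 39.96, 102 and 59 CPM in EpiLC+SA+H, against 158, 91.2, 238 and 174 CPM in EpiLC+SA (log2 fold change -1.33, SE 0.31, edgeR adjusted p = 0.00361), and Stat3, which carries the LIF signal, a log2 fold change of -1.01 (SE 0.22, edgeR adjusted p = 0.00223). Nr5a2, a nuclear receptor that binds the Pou5f1 and Nanog loci, rose, with 48.4, 25.3, 82.9 and 41.2 CPM in EpiLC+SA+H, against 21.4, 7.23, 15.4 and 9.47 CPM in EpiLC+SA (log2 fold change 1.88, SE 0.38, edgeR adjusted p = 0.00125). Nanog was at 42.6, 107, 174 and 110.4 CPM in EpiLC+SA+H, against 71.7, 45.5, 59.1 and 35 CPM in EpiLC+SA, with overlapping groups (log2 fold change 1.048, SE 0.35, edgeR adjusted p = 0.0426), and its call was lost without EpiLC+SA+H replicate 2, 3 or 4 or EpiLC+SA replicate 2, 3 or 4 (0.0654 to 0.19). Gbx2 had a log2 fold change of 2.47 (SE 0.71, edgeR adjusted p = 0.0184), lost without EpiLC+SA+H replicate 4 or EpiLC+SA replicate 3 or 4 (0.0558 to 0.106).

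General pluripotency genes were higher in 5 of 12 and lower in 0 (median 0.80). L1td1, an RNA-binding protein of pluripotent cells, had 1185, 599.5, 671 and 632 CPM in EpiLC+SA+H, against 213, 96.8, 74.7 and 73.5 CPM in EpiLC+SA, a log2 fold change of 2.75 (SE 0.27, edgeR adjusted p = 1.86e-07), with replicate 1 of each group above the other 3. Sox2 had 789, 689, 924 and 646 CPM in EpiLC+SA+H, against 537, 255, 391 and 245 CPM in EpiLC+SA (log2 fold change 1.09, SE 0.29, edgeR adjusted p = 0.00992) and Sall4 a log2 fold change of 0.97 (SE 0.16, edgeR adjusted p = 1.85e-04). Zfp281, which is needed for the exit from the naive state, had a log2 fold change of 0.93 (SE 0.28, edgeR adjusted p = 0.0235), lost without EpiLC+SA+H replicate 2 or 4 or EpiLC+SA replicate 4 (0.0564 to 0.109).

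Nuclear genes of oxidative phosphorylation leaned the other way. Of 77 tested, 0 were higher and 9 lower (11.7%), and the median was -0.39. Genes with the shortest transcripts (57 to 774 bases) had a similar median of -0.32, with 1.92% higher and 6.96% lower. The part of transcript length in the median of this list was not tested. Ndufa3, a subunit of complex I, had 76, 83.5, 97.9 and 88.1 CPM in EpiLC+SA+H, against 138, 135, 143 and 138 CPM in EpiLC+SA, a log2 fold change of -0.68 (SE 0.15, edgeR adjusted p = 0.00205). Atp5h, a subunit of the ATP synthase stalk, had a log2 fold change of -0.94 (SE 0.26, edgeR adjusted p = 0.0128), lost without EpiLC+SA+H replicate 1 (0.0523). Sdha, the catalytic subunit of succinate dehydrogenase, had a log2 fold change of -0.48 (SE 0.15, edgeR adjusted p = 0.0317), lost without EpiLC+SA+H replicate 1, 2, 3 or 4 or EpiLC+SA replicate 1, 2 or 4 (0.0571 to 0.152). The call of Sdha was also lost in the fit to the compared groups alone (0.0893) and with no filter on low counts (0.0842). Among 20 genes of heme a synthesis and cytochrome oxidase assembly, 1 was higher and 5 lower (median -0.13). Cox20, a chaperone of the COX2 subunit, had 13.1, 11.3, 14.4 and 14.1 CPM in EpiLC+SA+H, against 45.6, 49.97, 57 and 43.7 CPM in EpiLC+SA, well apart (log2 fold change -1.89, SE 0.21, edgeR adjusted p = 8.08e-07). Fdxr, which feeds electrons to heme a and iron-sulfur synthesis, had a log2 fold change of -1.12 (SE 0.23, edgeR adjusted p = 0.00159) and Cox14 -0.78 (SE 0.20, edgeR adjusted p = 0.00742), a call lost once each library's trend on transcript length was removed. Cox19 had a log2 fold change of -0.93 (SE 0.24, edgeR adjusted p = 0.00807), lost without EpiLC+SA replicate 3 (0.0596), and Coa5 -0.77 (SE 0.26, edgeR adjusted p = 0.0396), lost without EpiLC+SA+H replicate 1, 2 or 3 or EpiLC+SA replicate 1, 2, 3 or 4 (0.0589 to 0.131). Cox10, which makes heme o on the way to heme a, was the member that rose (log2 fold change 0.91, SE 0.27, edgeR adjusted p = 0.0205), lost without EpiLC+SA+H replicate 1 or EpiLC+SA replicate 2 or 4 (0.0555 to 0.0932).

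The 13 genes of the mitochondrial genome split, with 4 higher and 5 lower (median -0.13). mt-Co1, the heme-bearing subunit of cytochrome oxidase, had 2341, 3496, 2869.6 and 2592 CPM in EpiLC+SA+H, against 7365, 9707, 17890.5 and 14394 CPM in EpiLC+SA, a log2 fold change of -2.13 (SE 0.30, edgeR adjusted p = 2.44e-05). mt-Nd5 had a log2 fold change of -1.38 (SE 0.30, edgeR adjusted p = 0.00216) and mt-Atp8 -0.97 (SE 0.22, edgeR adjusted p = 0.00279). The complex I genes mt-Nd2 and mt-Nd3 rose, mt-Nd2 with 13394, 7544, 9006 and 5948 CPM in EpiLC+SA+H, against 4919, 2107, 1854 and 2229 CPM in EpiLC+SA (log2 fold change 1.69, SE 0.31, edgeR adjusted p = 3.66e-04) and mt-Nd3 with a log2 fold change of 2.36 (SE 0.35, edgeR adjusted p = 5.05e-05). mt-Nd1 had a log2 fold change of 0.93 (SE 0.19, edgeR adjusted p = 0.00147) and mt-Nd4 1.22 (SE 0.27, edgeR adjusted p = 0.00292). mt-Nd4l had a log2 fold change of -0.88 (SE 0.20, edgeR adjusted p = 0.00254) and mt-Nd6 -0.97 (SE 0.32, edgeR adjusted p = 0.0372). The call of mt-Nd6 was lost without EpiLC+SA+H replicate 2, 3 or 4 or EpiLC+SA replicate 1 or 4 (0.0731 to 0.199), and both were lost once the length trend was removed. mt-Nd4l overlaps mt-Nd4, mt-Atp8 overlaps its neighbour and mt-Nd6 lies opposite mt-Nd5, and the strand setting of the count is not given in the sources used here, so the values of these genes are uncertain.
Together the mitochondrial genes took 7.53, 8.17, 8.68 and 6.998% of the counts in EpiLC+SA+H, against 8.31, 8.74, 13.5 and 9.30% in EpiLC+SA. The difference of -2.13 percentage points did not pass an exact permutation test (2-sided p = 0.0571 over 70 arrangements, of which the smallest possible p is 0.0286). It was -0.939 points without EpiLC+SA replicate 3 (exact permutation p = 0.114), and without EpiLC+SA replicate 1 it was -2.68 points and passed (exact permutation p = 0.0286).

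Breakdown of branched-chain amino acids, which feeds succinyl-CoA, had 8 of 30 genes lower (26.7%) and 0 higher, with a median of -0.30. Acadsb had 15, 23, 22.2 and 28 CPM in EpiLC+SA+H, against 47.9, 41.9, 51.7 and 52.9 CPM in EpiLC+SA, a log2 fold change of -1.12 (SE 0.22, edgeR adjusted p = 6.95e-04). Pccb, a subunit of propionyl-CoA carboxylase, had 16, 30.5, 35.5 and 34.2 CPM in EpiLC+SA+H, against 58.6, 65.3, 55.1 and 68.9 CPM in EpiLC+SA (log2 fold change -1.07, SE 0.24, edgeR adjusted p = 0.00248). Bcat1, the cytosolic transaminase, had a log2 fold change of -0.79 (SE 0.16, edgeR adjusted p = 7.96e-04) and Echs1, an enoyl-CoA hydratase, -0.85 (SE 0.20, edgeR adjusted p = 0.00325). In the TCA cycle 3 of 20 were lower and 0 higher (median -0.38). This share of 15% lay near the 16.5% of all genes called in either direction and above the 5.95% that were lower. Ogdh, the oxoglutarate dehydrogenase that makes succinyl-CoA, had 61, 83.7, 62.5 and 71.4 CPM in EpiLC+SA+H, against 106, 137, 115 and 152 CPM in EpiLC+SA (log2 fold change -0.87, SE 0.18, edgeR adjusted p = 0.0014). Idh2 had a log2 fold change of -0.52 (SE 0.17, edgeR adjusted p = 0.0406), lost without EpiLC+SA+H replicate 1, 2 or 4 or EpiLC+SA replicate 1, 3 or 4 (0.0522 to 0.162). In fatty acid oxidation 5 of 21 were lower and 1 higher (median -0.19). Cpt2, which passes acyl groups into the matrix, rose (log2 fold change 1.06, SE 0.27, edgeR adjusted p = 0.00693). Acadvl and Hadha, enzymes of long-chain oxidation, had log2 fold changes of -0.91 (SE 0.25, edgeR adjusted p = 0.0136) and -0.56 (SE 0.15, edgeR adjusted p = 0.00894), lost without EpiLC+SA replicate 4 (0.0532 and 0.0511). Slc25a20, the acylcarnitine carrier, had a log2 fold change of -0.90 (SE 0.30, edgeR adjusted p = 0.0381), lost without EpiLC+SA+H replicate 1, 2 or 3 or EpiLC+SA replicate 1, 2, 3 or 4 (0.0502 to 0.171).

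Glycolysis and hypoxia genes had 4 of 34 higher and 0 lower, with a median of -0.23. The 11.8% that were higher lay near the 10.5% of all genes tested. Egln3, an oxygen-sensing prolyl hydroxylase and itself a target of hypoxia-inducible factors, had 41.2, 17, 17.7 and 32.9 CPM in EpiLC+SA+H, against 7.44, 7.02, 4.64 and 2.41 CPM in EpiLC+SA, a log2 fold change of 2.31 (SE 0.38, edgeR adjusted p = 1.24e-04). Egln1 had a log2 fold change of 1.28 (SE 0.37, edgeR adjusted p = 0.0178), lost without EpiLC+SA+H replicate 4 or EpiLC+SA replicate 2 (0.0504 to 0.142). Bnip3, a mitophagy receptor, had 113, 57.4, 54.3 and 104 CPM in EpiLC+SA+H, against 32.5, 52.3, 30.2 and 23.8 CPM in EpiLC+SA (log2 fold change 1.24, SE 0.38, edgeR adjusted p = 0.0267), lost without EpiLC+SA+H replicate 1 or 4 or EpiLC+SA replicate 3 or 4 (0.0652 to 0.0834). The call of Bnip3 was also lost without the 3 shallow libraries (0.0702) and with no filter on low counts (0.0517). Slc2a1, the glucose transporter GLUT1, had 134, 207, 137 and 415 CPM in EpiLC+SA+H, against 89.5, 129, 82.5 and 99.9 CPM in EpiLC+SA (log2 fold change 1.16, SE 0.34, edgeR adjusted p = 0.0207). EpiLC+SA+H replicate 4 was far above the others, and without it the log2 fold change was 0.69 (edgeR adjusted p = 0.137). The call was also lost without EpiLC+SA replicate 3 (0.0585).

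In cholesterol synthesis 3 of 24 were lower and 1 higher (median -0.15), a share called of 16.7% beside the 16.5% of all genes tested. Insig1, which retains SREBP in the endoplasmic reticulum, had a log2 fold change of -0.91 (SE 0.24, edgeR adjusted p = 0.00897). Stard4, a sterol carrier, had a log2 fold change of -0.81 (SE 0.21, edgeR adjusted p = 0.00954), lost without EpiLC+SA replicate 1 (0.0597), and Tm7sf2 -0.71 (SE 0.23, edgeR adjusted p = 0.0352), lost without EpiLC+SA+H replicate 1, 2, 3 or 4 or EpiLC+SA replicate 1, 3 or 4 (0.0595 to 0.154). Of 21 genes of glutathione transferases and tyrosine breakdown, 0 were higher and 2 lower (median -0.28). Gstm1 had 48.4, 64.1, 67.2 and 40.1 CPM in EpiLC+SA+H, against 88.5, 109, 94.2 and 97.3 CPM in EpiLC+SA (log2 fold change -0.82, SE 0.19, edgeR adjusted p = 0.00292), and with 54.9 ± 12.9 CPM it still stood above the 28.1 ± 5.71 CPM (SD, n = 4 each) of untreated EpiLC, a log2 difference of 0.96 (edgeR adjusted p = 0.0414). Gstm7 had a log2 fold change of -1.32 (SE 0.38, edgeR adjusted p = 0.0161), lost without EpiLC+SA+H replicate 4 (0.0622). Mu-class transferases are close relatives, and reads shared between them were discarded.

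Of 20 p53 targets, 0 were higher and 2 lower (median -0.15). Perp, a membrane protein of p53-dependent death, had 6.29, 4.73, 4.81 and 6.94 CPM in EpiLC+SA+H, against 18.1, 14.5, 16.9 and 11.7 CPM in EpiLC+SA (log2 fold change -1.43, SE 0.36, edgeR adjusted p = 0.00634). The death receptor gene Fas had 0, 0, 0.155 and 0 CPM in EpiLC+SA+H, against 1.94, 1.49, 1.69 and 0.517 CPM in EpiLC+SA (edgeR adjusted p = 0.00531), with reads in 1 hemin library only. JmjC demethylases and TET enzymes, which need oxoglutarate and iron, had 3 of 21 higher (14.3%, beside 10.5% of all genes tested) and 0 lower (median 0.18). Tet3 had 16.9, 12.1, 20.6 and 14.6 CPM in EpiLC+SA+H, against 6.8, 4.47, 7.39 and 5.17 CPM in EpiLC+SA (log2 fold change 1.42, SE 0.28, edgeR adjusted p = 7.39e-04), Kdm2a a log2 fold change of 0.89 (SE 0.22, edgeR adjusted p = 0.00562) and Kdm6b 0.78 (SE 0.21, edgeR adjusted p = 0.012).

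Markers of other cell types gave few calls. Primitive endoderm (0 of 8), fibroblast (0 of 4) and 2C-like genes (0 of 9) had none, with medians of -0.34, -0.89 and 1.048. Their summed levels were 15.98 to 41.1, 9.62 to 11.8 and 5.81 to 11.02 CPM in EpiLC+SA+H, against 18.5 to 39.1, 15.3 to 25.97 and 4.82 to 6.80 CPM in EpiLC+SA. Gm4340, Zscan4b and Zscan4f had no count in the 8 libraries. Reads that map to several loci were discarded, so a lack of counts for genes with close copies, as in the Zscan4 cluster, does not show a lack of RNA. The part of this in the low 2C-like sums was not tested. Trophectoderm (1 of 9, median 0.13) and mesoderm markers (1 of 7, median -0.44) were higher through Eomes alone, and their sums were 66.9 to 100.2 and 11.7 to 19.2 CPM in EpiLC+SA+H, against 62.6 to 90.8 and 9.78 to 17.3 CPM in EpiLC+SA. Neuroectoderm markers had 1 of 6 higher (median 1.29). Sox1 had 12.6, 12.2, 20.5 and 16.3 CPM in EpiLC+SA+H, against 7.61, 4.04, 1.27 and 4.82 CPM in EpiLC+SA (log2 fold change 1.78, SE 0.40, edgeR adjusted p = 0.00252), the summed level was 39.6 to 64.9 CPM in EpiLC+SA+H and 19 to 38.8 CPM in EpiLC+SA, and Neurog2 had no count. The part of a rise in neuroectoderm markers in the other results was not tested. Germ cell markers had 1 of 8 higher and 1 lower (median 0.10), Prdm1 with a log2 fold change of 1.48 (SE 0.38, edgeR adjusted p = 0.00791) and Nanos3 with -2.09 (SE 0.49, edgeR adjusted p = 0.00362), and their sum was 71.7 to 178 CPM in EpiLC+SA+H and 108 to 182 CPM in EpiLC+SA.

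Among the largest changes at 20 CPM or more without overlap (10 in each direction), Tfrc was the only member of the heme and iron lists, and mt-Co1 and Ddit3 were also among those lower. Mycn, a proto-oncogene of growth, had 28.6, 76.7, 69.8 and 57.1 CPM in EpiLC+SA+H, against 9.39, 2.55, 4.22 and 2.76 CPM in EpiLC+SA, a log2 fold change of 3.60 (SE 0.40, edgeR adjusted p = 1.25e-06). Ina, a neuronal intermediate filament, had 121, 63.4, 79.8 and 60.8 CPM in EpiLC+SA+H, against 11, 8.51, 5.91 and 4.65 CPM in EpiLC+SA (log2 fold change 3.42, SE 0.32, edgeR adjusted p = 6.23e-08). Lefty1 belonged to the same 10 higher genes. Wt1 had a log2 fold change of 3.35 (SE 0.72, edgeR adjusted p = 0.00216), Dusp27 3.18 (SE 0.43, edgeR adjusted p = 1.50e-05) and Zfp41 3.11 (SE 0.29, edgeR adjusted p = 6.45e-08). The mitochondrial tRNA gene mt-Tt had a log2 fold change of 3.09 (SE 0.58, edgeR adjusted p = 6.05e-04). Downward, the non-coding RNA Rn7sk, which restrains transcription elongation, had 2.42, 2.45, 7.29 and 1.052 CPM in EpiLC+SA+H, against 21.7, 35.7, 115 and 42.2 CPM in EpiLC+SA, a log2 fold change of -4.0 (SE 0.73, edgeR adjusted p = 5.23e-04), and the 5S ribosomal RNA gene n-R5s193 had a log2 fold change of -3.11 (SE 0.59, edgeR adjusted p = 6.71e-04). Gadd45b, a stress-inducible gene of DNA repair and demethylation, had 9.2, 9.3, 25.9 and 18.8 CPM in EpiLC+SA+H, against 61, 39.98, 98.8 and 121 CPM in EpiLC+SA (log2 fold change -2.30, SE 0.43, edgeR adjusted p = 6.43e-04). Lrrc31 had a log2 fold change of -2.27 (SE 0.47, edgeR adjusted p = 0.00177), the peptidase gene Dpp7 -2.21 (SE 0.31, edgeR adjusted p = 2.44e-05) and mt-Tm -2.0 (SE 0.40, edgeR adjusted p = 9.40e-04). The library kit was made for the 3' ends of mRNAs, and Rn7sk, n-R5s193, mt-Tt and mt-Tm are not mRNAs. Whether their counts follow their RNA levels was not tested.

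The same addition of hemin to SA was made in naive cells, with no library in common between the comparisons. Between 2iL+SA+H and 2iL+SA, 0 of 16067 genes were called (0%) by edgeR's quasi-likelihood test, 737 had an unadjusted p under 0.05 and DESeq2 called 1. Without 2iL+SA+H replicate 3, 29 genes were called. Tfrc averaged 352 ± 198 CPM in 2iL+SA+H and 593 ± 205 CPM in 2iL+SA (SD, n = 4 each), and the log2 fold change there was -0.75. The hemin effect in the transition minus that in naive cells was -1.40 on the log2 scale, which did not pass the test (edgeR adjusted p = 0.0578). Dgcr8 had log2 fold changes of -1.15 in the transition and -1.10 in naive cells, and the difference between them was -0.05 (edgeR adjusted p = 0.962).

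The difference between the hemin effects of the 2 states was tested for each gene. It was called for 1017 genes (6.33%), 734 with a higher and 283 with a lower log2 fold change in the transition than in naive cells. The count was 639 without EpiLC+SA replicate 4 and 1682 by DESeq2. Nodal had 60.8 ± 4.37 CPM in 2iL+SA+H and 70.9 ± 27.4 CPM in 2iL+SA (SD, n = 4 each), and the difference between the states was 3.08 (edgeR adjusted p = 6.65e-04). Hs6st1, a heparan sulfate sulfotransferase, had 43.1, 49.9, 61.1 and 57.4 CPM in EpiLC+SA+H, against 9.87, 7.87, 9.5 and 8.27 CPM in EpiLC+SA (log2 fold change 2.58, SE 0.19, edgeR adjusted p = 2.69e-09). It averaged 139 ± 15 CPM in 2iL+SA+H and 147 ± 31.6 CPM in 2iL+SA (SD, n = 4 each), a difference between the states of 2.66 (edgeR adjusted p = 6.70e-07). Pcf11, a factor of mRNA 3' end cleavage, had 91.5, 98, 95.3 and 82.5 CPM in EpiLC+SA+H, against 19.3, 21.7, 17.9 and 11.7 CPM in EpiLC+SA, and its difference was 2.60 (edgeR adjusted p = 6.70e-07). Klf13, Lrrc14 and the imprinted host transcript Mirg followed with 2.46 (edgeR adjusted p = 2.47e-06), 3.07 (edgeR adjusted p = 1.13e-05) and 3.01 (edgeR adjusted p = 1.13e-05). In the other direction Cox20 had -2.05 (edgeR adjusted p = 8.65e-05), Lyrm9 -1.58 (edgeR adjusted p = 0.00158), Ip6k2 -1.67 (edgeR adjusted p = 0.00159), the carbonic anhydrase gene Car13 -1.59 (edgeR adjusted p = 0.00186) and Ybx1, an abundant RNA-binding protein, -1.08 (edgeR adjusted p = 0.00202). Ybx1 had 1387, 1587, 1494 and 1379 CPM in EpiLC+SA+H, against 2087, 2496, 2398 and 2366 CPM in EpiLC+SA. For Fgf5 the difference was not called, at 4.91 (edgeR adjusted p = 0.356), and its naive libraries were at 0, 0, 0 and 0.402 CPM in 2iL+SA+H and 0, 0, 0 and 0.161 CPM in 2iL+SA.

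**Figure D4:**
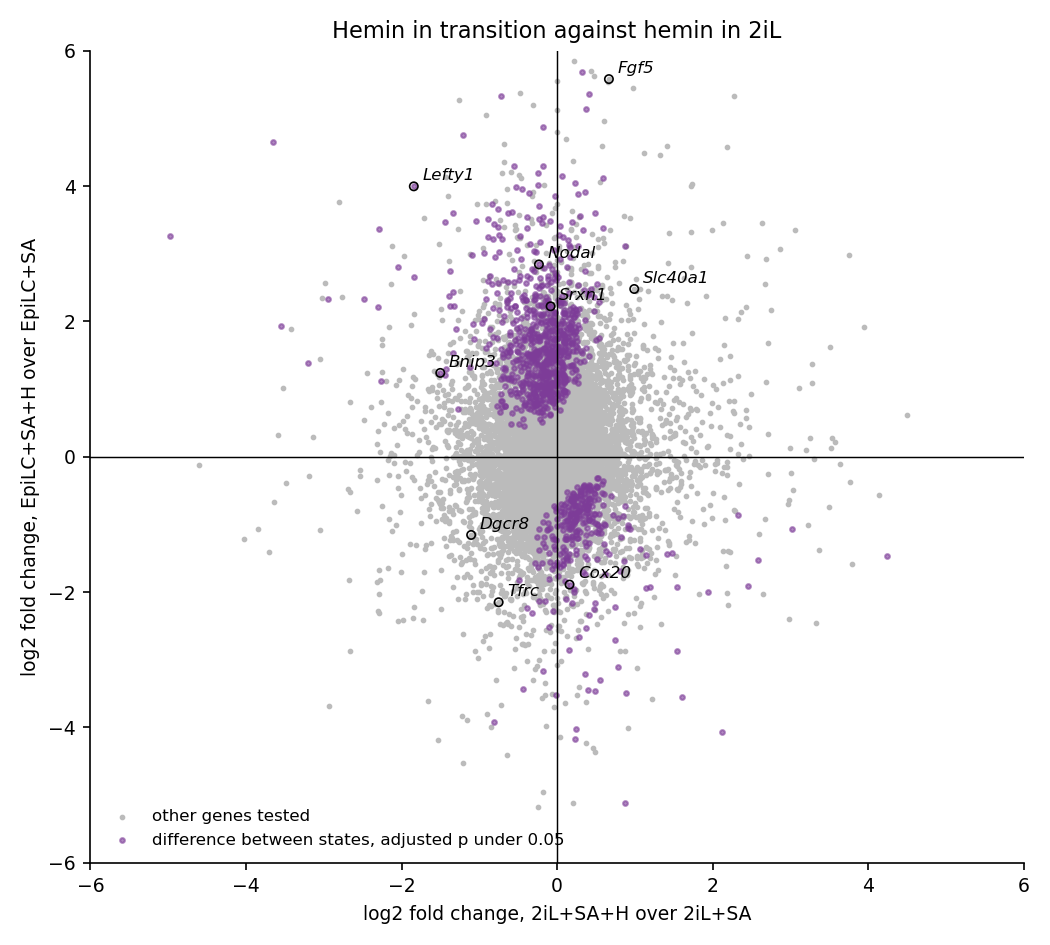
Log2 fold change with hemin in the transition (vertical axis, EpiLC+SA+H over EpiLC+SA) against that in naive cells (horizontal axis, 2iL+SA+H over 2iL+SA), with genes in purple where the 2 differ at an edgeR adjusted p under 0.05 (1017 of 16067). Both axes stop at 6 in either direction, which leaves 5 genes out, and Lefty1, Nodal and Srxn1 lie high with naive values near or below 0 while Dgcr8 is low in both states.

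Short transcripts had lower log2 fold changes than long ones. Over 15082 genes with a transcript model (93.9%), genes of the shortest of 10 length classes had a median log2 fold change of -0.32 (1.92% higher and 6.96% lower) and those of the longest class 0.15 (16.9% higher and 4.97% lower). In naive cells these medians were 0.06 and -0.13. Between the longest and the shortest class, the median log2 CPM differed by 3.07 to 3.40 in EpiLC+SA+H, by 2.57 to 2.99 in EpiLC+SA and by 3.29 to 3.82 in the other 4 groups. Its part in the calls was tested in 1 way: with each library's trend on length removed, 2477 of the 2645 called genes had a transcript model and could be tested, and 2144 of these were called again. That fit called 1465 genes higher and 999 lower. Fgf5, Nodal, Slc40a1, Tfrc, Srxn1 and Keap1 were among those called in that fit. Among named genes, Tmem14c, Notch2, Cox14, Idh2, Gclm, Bag3, mt-Nd4l and mt-Nd6 lost their calls in it (edgeR adjusted p 0.0531 to 0.118). The part of length in the medians of the gene lists was not tested.

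**Figure D5:**
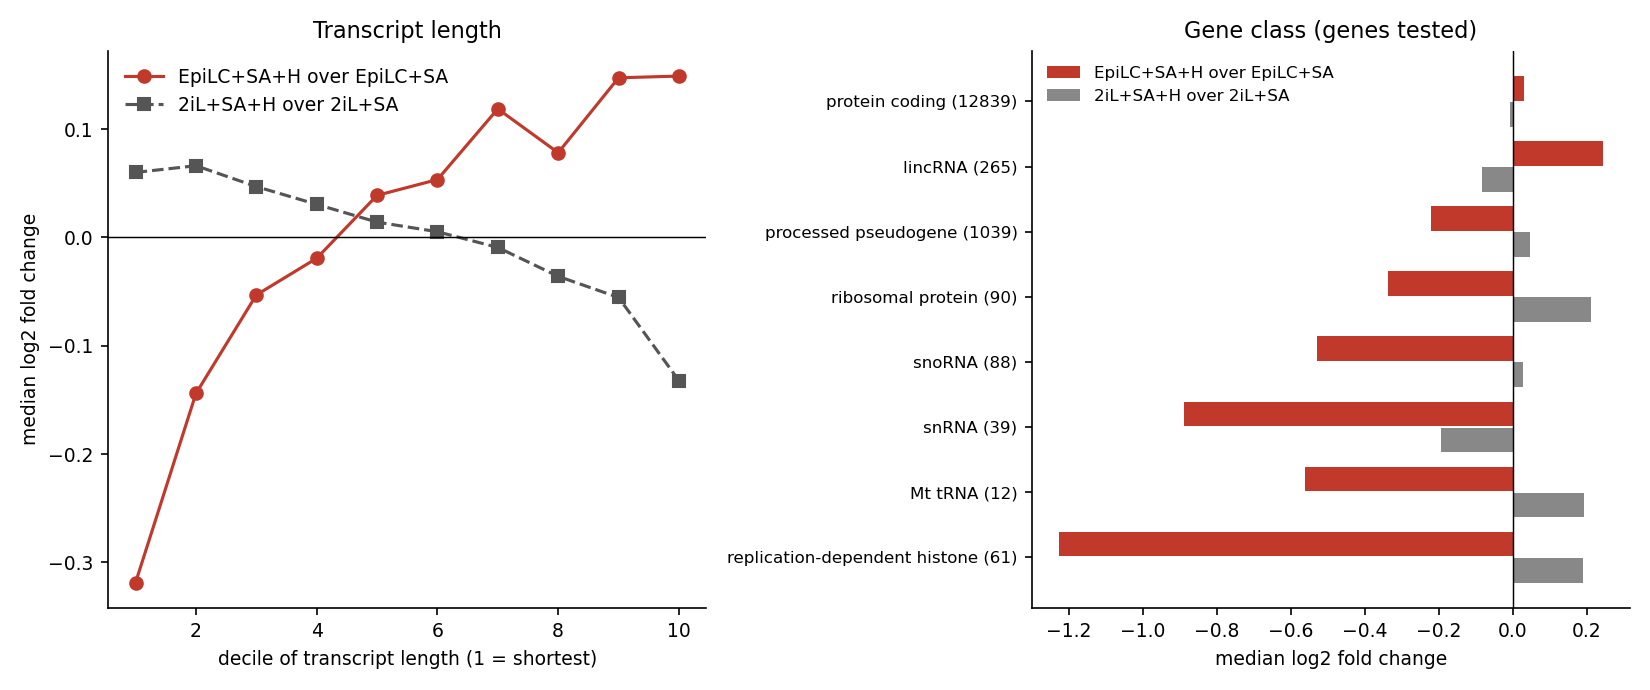
Left, median log2 fold change (vertical axis) by class of transcript length (horizontal axis, 10 classes of equal size, 1 the shortest) for EpiLC+SA+H over EpiLC+SA in red and 2iL+SA+H over 2iL+SA in grey, which run in opposite directions. Right, the median by gene class (horizontal axis) with the number of genes tested, where replication-dependent histone genes have the lowest median in the transition, -1.23.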

How the data were processed

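The authors made QuantSeq 3' libraries (50-base single-end reads), trimmed them with fastq-mcf, aligned them to mm10 with HISAT2, dropped multi-mapped reads and used HTSeq for counting. Annotation and strand setting are not given in the sources used here. The deposited values are raw counts per gene. They were fitted in edgeR 4.0.16 (R 4.3.3) with TMM scaling, filterByExpr at a minimum count of 5 and robust quasi-likelihood dispersions in 1 model of 6 groups and 24 libraries, with Benjamini-Hochberg adjustment over 16067 genes. Total counts per library ran between 1857964 and 9069538, and depth limits genes below about 1 CPM. DESeq2 1.42.0, other filters, groups, blocks and left-out libraries were alternatives. The code was tested on simulated data.

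Members and lists were chosen with earlier results of these data known. Named genes were drawn from the 4 markers, Alad, genes of the heme and iron lists, up to 4 called members of each other list with the smallest adjusted p (or up to 3 abundant ones), the largest called changes (up to 10 per direction) at 20 CPM or more without overlap, and up to 5 per direction with the smallest adjusted p of the difference between states, leaving out Gm-number and Rik symbols. Gclm, Txnrd1, Me1, Stc2, Slc3a2, Cth, Hsph1, Bag3, Mt2, Hspa1b, Nanog, Tfcp2l1, Gbx2, Zfp281, Smad7, Fgf15, Myc, Dll1, Lrp5, mt-Nd4, mt-Nd4l, mt-Nd5, mt-Nd6, mt-Atp8, Slc25a20, Prdx1, Hist1h1e and Hist1h2bk were chosen after their values were seen. Some genes that these rules name are not reported here.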

Additional observations from a re-analysis of the deposited data

Results flagged for a closer look

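In 21 of 322 groups of 4 libraries tested for a distant value (6.5%), the highest or lowest library stood far from the other 3 by Dixon's test at its 95% critical value. Chance gives about 1 in 20, and no cause was tested. In EpiLC+SA+H these were Nodal 96.8 CPM (replicate 3), Hmox1 94.4 CPM (replicate 1), Slc48a1 101 CPM (replicate 1), Dact2 32.9 CPM (replicate 3), L1td1 1185 CPM (replicate 1), Cox14 111 CPM (replicate 1), Sdha 122 CPM (replicate 1), Fas 0.155 CPM (replicate 3), Kdm2a 198 CPM (replicate 1), Dusp27 20.1 CPM (replicate 2), Cth 8.71 CPM (replicate 1). Of these 11, 7 were replicate 1, the shallowest of the 8 libraries. In EpiLC+SA they were Nodal 23.9 CPM (replicate 1), Cbr3 25.9 CPM (replicate 2), Nr1d1 19.6 CPM (replicate 2), Spred3 0.344 CPM (replicate 4), L1td1 213 CPM (replicate 1), Kdm6b 12.6 CPM (replicate 1), mt-Nd2 4919 CPM (replicate 1), Gclm 188 CPM (replicate 2), Slc25a20 49.8 CPM (replicate 4), Hist1h2bk 6.97 CPM (replicate 3).

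For 77 of the 161 named genes the hemin effect differed between the 2 states by the edgeR test of the difference itself. Over all genes tested this share was 6.33%. Many of the named genes were chosen for a call in the transition or in this test, so their number and directions are no independent evidence. The values are the log2 fold change in the transition minus that in naive cells. It was higher in the transition for 54 genes: Lefty1 5.84, Maml1 3.61, Bach2 3.58, Dusp27 3.40, Ina 3.38, Mycn 3.11, Nodal 3.08, Lrrc14 3.07, L1td1 3.05, Mirg 3.01, Ier3 2.93, mt-Tt 2.93, Notch1 2.82, mt-Nd3 2.80, Bnip3 2.74, Egln3 2.71, Hs6st1 2.66, Pcf11 2.60. Smaller differences of the same sign were found for Klf13 2.46, Nkd2 2.45, Pou3f1 2.40, Srxn1 2.31, Spred3 2.27, Smad7 2.26, Dact2 2.25, Zfp41 2.24, Fzd8 2.22, Bach1 2.21, Zic2 2.17, Otx2 2.03, Keap1 2.01, Maml2 1.99, Skil 1.96, Egln1 1.95, Sox1 1.94, Slc2a1 1.75. The rest of these were Dnajb1 1.73, Gli3 1.66, Cbr3 1.61, mt-Nd2 1.60, Fzd7 1.48, Tdgf1 1.46, Abcc4 1.45, Tet3 1.41, Spry2 1.36, Slc38a2 1.35, mt-Nd4 1.34, Sesn2 1.32, Fgf4 1.31, Txnrd1 1.24, Kdm2a 1.23, mt-Nd1 1.03, Kdm6b 1.02, Sall4 0.87. It was lower in the transition for 23 genes: n-R5s193 -3.89, Hist1h2bk -2.50, mt-Tm -2.22, Cox20 -2.05, Gadd45b -1.98, Hist1h1e -1.90, mt-Co1 -1.89, Mt2 -1.68, Ip6k2 -1.67, Car13 -1.59, Mt1 -1.59, Lyrm9 -1.58, mt-Nd6 -1.46, Fdxr -1.37, Tmem14c -1.31, mt-Nd4l -1.25, Pccb -1.22, Stat3 -1.09, Cox14 -1.09, Ybx1 -1.08, Gstm1 -0.91, Ndufa3 -0.88, Bcat1 -0.78.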

How the results depend on the processing

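Removal of each library's trend on transcript length was chosen after seeing the data. The 1689 higher and 956 lower genes became 2051 and 1261 by DESeq2, 1729 and 936 with DESeq2 size factors, 1494 and 740 with no filter, 1802 and 884 at a minimum count of 20, 1338 and 818 in a fit to the compared groups alone, and 1465 and 999 without the length trend. Without the 3 shallowest libraries the numbers were 2258 higher and 1561 lower. Leaving out 1 library at a time gave 1260 to 1862 higher and 550 to 811 lower genes and kept 67.3 to 88.2% of the calls, and 1 called gene changed sign without EpiLC+SA+H replicate 4 and 1 without EpiLC+SA replicate 3. The 1017 differences between states became 1682 by DESeq2 and 2083 without the shallow libraries, with 639 to 1239 over single libraries. The naive contrast gave 1 gene by DESeq2, 1 without the shallow libraries and 0 to 29 over single libraries. The difference in mitochondrial share was between -2.68 and -0.939 points. With a replicate block the counts were 1702 higher, 978 lower, 1024 differences and 0 naive calls, and of the named genes Abcg2 gained a call (edgeR adjusted p = 0.0482) and Cth lost its own (0.0725). Deviations of libraries with the same number correlated by -0.07, 0.23, 0.09 and 0.15, and those with different numbers by -0.18 to 0.12. The values of replicates 2 and 4 lay above that range, so whether the numbers pair the libraries was not settled. The main fit did not pair them. Of the 161 named genes, 142 were called, 100 of them under each of the 16 alternatives in which they were tested (13 for Fas). Of the 19 named genes that were not called, 6 passed in at least 1.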

Other observations

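Replication-dependent histone genes, whose mRNAs are made in S phase and mostly lack a poly(A) tail, were the gene class with the lowest median. Of 61 tested, 1 was higher (1.64%) and 18 were lower (29.5%) with hemin, beside 10.5% and 5.95% of all genes tested, with a median log2 fold change of -1.23 in the transition and 0.19 in naive cells. Hist1h1e, a linker histone gene, had 57.6, 70.3, 95.7 and 58.5 CPM in EpiLC+SA+H, against 178, 165, 194 and 156 CPM in EpiLC+SA, without overlap (log2 fold change -1.29, SE 0.29, edgeR adjusted p = 0.00244), and the difference between the states was -1.90 (edgeR adjusted p = 0.00467). Hist1h2bk had 7.26, 5.87, 4.5 and 5.26 CPM in EpiLC+SA+H, against 21.4, 20.6, 6.97 and 23.1 CPM in EpiLC+SA (log2 fold change -1.68, SE 0.39, edgeR adjusted p = 0.00349), and EpiLC+SA replicate 3 lay within the range of the hemin libraries. Histone genes have near-identical copies, reads that map to several loci were discarded, and both genes were chosen after their values were seen.

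The classes of small non-coding RNA differed, read against the same 10.5% higher and 5.95% lower of all genes. The library kit was made for the 3' ends of mRNAs, so counts of these RNAs may not follow their levels. Of 88 snoRNA genes 3 were higher (3.41%) and 10 lower (11.4%, median -0.53), of 39 snRNA genes 2 were higher (5.13%) and 6 lower (15.4%, median -0.89), and of 12 mitochondrial tRNA genes 1 was higher (8.33%) and 4 lower (33.3%, median -0.56). Of 13 scaRNA genes 2 were higher (15.4%) and 0 lower (median 0.06), and of 13 miRNA genes 0 were higher and 1 lower (7.69%, median -0.36). Ribosomal protein genes had 1 higher (1.11%) and 2 lower (2.22%) of 90, both below those shares, with a median of -0.34. The 28 higher (10.6%) and 12 lower (4.53%) of 265 lincRNA genes were near the shares of all genes.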
